A study of Mus musculus with 3 samples.

Results

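The replication-dependent histone gene clusters of the mouse were examined for binding of BACH2 and JunD in induced regulatory T cells (iTreg cells). The members are all ChIP-seq peaks that lie wholly inside 2 intervals of the mm9 genome, the Hist1 cluster (chromosome 13, 21800000 to 23900000) and the Hist2 cluster (chromosome 3, 96020000 to 96100000). There were 49 JunD peaks, of 5237 in that list, and 67 BACH2 peaks, of 9133, or 116 of 14370 peaks in all. Of these, 42 JunD and 60 BACH2 peaks lay in the Hist1 region, and 7 of each in the Hist2 region. The intervals were chosen by their JunD scores and BACH2 values, seen in an earlier look at these lists, so their JunD scores, their BACH2 overlap and the BACH2 values there are given as descriptions, with no test.

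The libraries came from wild-type C57BL/6 mice aged 8 to 12 weeks. Splenic CD4+ T cells were cultured for 4 days with antibodies to CD3 and CD28 and with TGF-β, which turns them into iTreg cells. The BACH2 and JunD ChIPs had 1 library each, as had an input that was not used here. There is thus no replicate error, and no difference between the factors can be set against one. The lists hold positions and peak scores but no expression values, so the identity of the cells could not be checked against marker genes. No mm9 annotation was used here, so the intervals were taken as given, and no peak was assigned to a gene.

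Replication-dependent histone genes encode the proteins that package new DNA, namely the core histones H2A, H2B, H3 and H4 and the linker histone H1. They are short genes without introns, exist in many near-identical copies, and are transcribed strongly in S phase, so they are active in dividing cells such as activated T cells. BACH2 is a repressor and JunD an AP-1 subunit, both of the basic leucine zipper family. AP-1 sites have the core TGACTCA. Jun proteins paired with ATF or CREB family members can also bind the cAMP response element (CRE), TGACGTCA, which is 1 base longer. BACH proteins paired with small MAF proteins bind an AP-1 core with a flank, searched here as TGC followed directly by TGACTCA or by its reverse complement TGAGTCA.

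The RefSeq gene table (GRCm38.p6, used for names and order only) lists 66 histone genes of these families on chromosomes 13 and 3, of which 2, H2ac14 and H2ac5-ps, are pseudogenes. Promoter windows, from 250 bases before to 50 bases after the gene start, were matched by symbol for 59 of them, giving 60 windows since H2bc6 has 2. The AP-1 core, searched on both strands as were all motifs, was in 0 of 60 windows. A count of 0 allows a share of up to 5% by the limit of 3 counts and up to 6.02% by the Wilson 95% interval, and the share of all 32851 windows of that length was 5.2%. Some histone windows overlap, so fewer than 60 are separate, and a share below that of all windows was not detectable. The longer BACH-MAF sequence, which contains the AP-1 core, was likewise in 0 of 60, against 0.289%. The CRE was in 4 of 60 windows (6.67%, Wilson 95% interval 2.62 to 15.9), against 1.79% of all. These were the windows of H2ac11, H2bc11, H4c8 and H4c1. H2ac11 and H2bc11 are neighbours on opposite strands whose windows overlap, so they are not separate observations.

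Elements known from histone promoters were found in larger shares of these windows than of all windows. CCAAT, the site of the factor NF-Y, was in 52 of 60 windows, or 86.7%, against 37.4% of all. It was in every window of the H1, H2A, H2B and H3 genes that was searched and in 3 of 11 of the H4 genes. The sequence of the TATA box, TATAAA, was in 34 of 60, or 56.7%, against 13.6%. Matches could lie anywhere in the window, and those of H4c1 and H2ac12 were not within the 250 bases before the gene start. The octamer ATTTGCAT, the site of OCT1, was in 13 of 60, or 21.7%, against 1.74%, and all 13 belonged to H2A or H2B genes. Several of the 13 are neighbours, among them H2bc1 and H2ac1, whose windows overlap, so the 13 are not all separate observations. The E2F-type sequences TTTGGCGC and TTTCGCGC were in 9 of 60, or 15% (Wilson 95% interval 8.10 to 26.1), against 0.813%, again at H2A and H2B genes alone. Among these, the windows of H2ac11 and H2bc11 overlap, as do those of H2ac22 and H2bc22, so the 9 are not all separate observations. The neighbours H2ac12 and H2bc12, and H2bc7 and H2ac7, are also among the 9. Whether their windows overlap was not determined, since the search for overlaps left out genes whose starts lie closest together. A match is a description of the letters and not a bound site.

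The promoters of H2ac11, H4c8, H4c1 and H2ac12 are printed, 250 bases each up to the base before the gene start, from RefSeq (GRCm38.p6, a build whose positions are not those of the mm9 peaks). The first 3 show where the CRE lies, and H2ac12 shows a promoter with octamer and CCAAT but no CRE. Capitals mark the matches to the searched motifs within these 250 bases.
H2ac11 (an H2A gene, chr13:22042950-22043199, minus strand): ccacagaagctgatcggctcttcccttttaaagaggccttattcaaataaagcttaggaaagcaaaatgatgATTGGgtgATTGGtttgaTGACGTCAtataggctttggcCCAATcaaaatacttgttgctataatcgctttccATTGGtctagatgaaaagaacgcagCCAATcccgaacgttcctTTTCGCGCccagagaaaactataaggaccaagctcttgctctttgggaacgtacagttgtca
H4c8 (an H4 gene, chr13:23530794-23531043, plus strand): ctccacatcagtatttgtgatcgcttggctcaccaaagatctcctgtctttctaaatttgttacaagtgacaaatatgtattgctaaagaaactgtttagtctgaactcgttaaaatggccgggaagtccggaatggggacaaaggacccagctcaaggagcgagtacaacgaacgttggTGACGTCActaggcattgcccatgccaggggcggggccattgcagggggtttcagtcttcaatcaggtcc
H4c1 (an H4 gene, chr13:23761250-23761499, minus strand): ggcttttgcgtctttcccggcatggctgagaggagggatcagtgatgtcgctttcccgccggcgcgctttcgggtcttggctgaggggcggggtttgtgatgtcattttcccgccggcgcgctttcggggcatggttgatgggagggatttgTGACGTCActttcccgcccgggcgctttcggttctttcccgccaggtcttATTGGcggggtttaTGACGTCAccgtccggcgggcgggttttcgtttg
H2ac12 (an H2A gene, chr13:22035644-22035893, minus strand): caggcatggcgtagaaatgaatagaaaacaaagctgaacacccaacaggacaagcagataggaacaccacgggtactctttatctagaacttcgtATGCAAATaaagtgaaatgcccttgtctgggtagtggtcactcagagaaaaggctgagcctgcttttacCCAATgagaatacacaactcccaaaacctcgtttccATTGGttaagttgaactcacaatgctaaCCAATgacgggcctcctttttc
In these promoters the CRE begins 160 bases before the start of H2ac11 and 70 bases before that of H4c8. H4c1 has 2 copies, which begin 98 and 34 bases before its start. In H2ac11 the CRE is flanked by CCAAT boxes on both sides, and an E2F-type sequence begins 62 bases before the start.

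JunD peaks in the histone clusters were among the strongest and widest of the JunD list. The JunD score, a value the authors' caller gave each peak on a scale that is not stated, ran from 95.3 to 2141 with a median of 580 (interquartile range 443 to 763), against a median of 81.3 for the 5188 JunD peaks elsewhere. The clusters held 0.936% of JunD peaks but 37 of the 100 with the highest score (1.91% of all JunD peaks are in that 100), 13 of the highest 25 and 5 of the highest 10. The strongest 20% of the list held 46 of the 49. Widths ran from 579 to 2865 bp with a median of 1575 bp, against 550 bp elsewhere. Peaks wider than 1 kb were 45 of 49, against 9.26% of the whole list.

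Wider JunD peaks tended to have higher scores, with a Spearman's rho of 0.56 over the 49 peaks and 0.51 over those elsewhere. These points are neighbouring peaks of 1 library, and the values are descriptions. The 440 JunD peaks over 1 kb elsewhere had a median score of 167 and a median width of 1238.5 bp. The 45 in the clusters had a median score of 590 and were also wider, with a median of 1646 bp, so the scores were not compared at matched width.

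**Figure D1:**
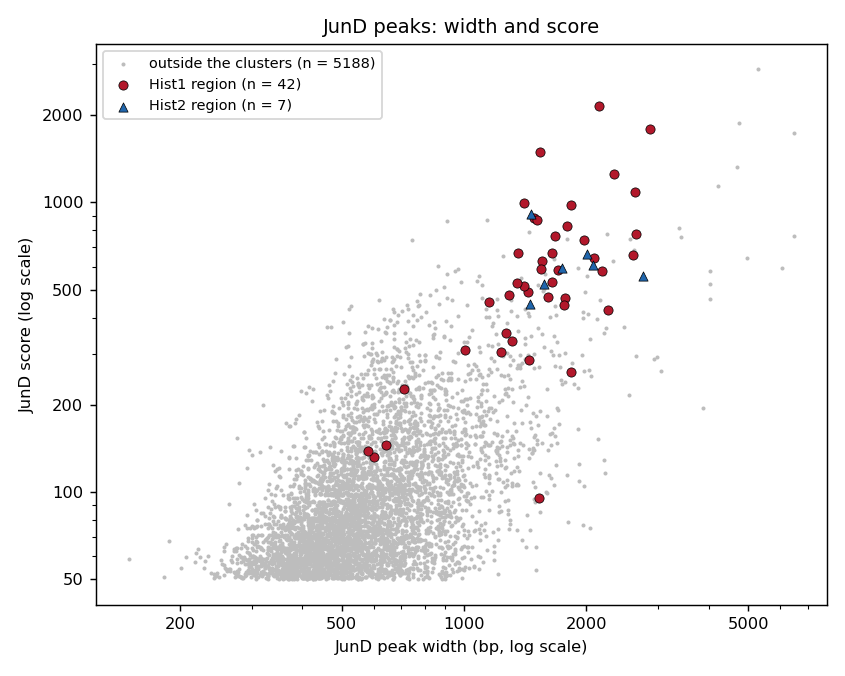
Width (bp, x axis) and score (y axis) of every JunD peak, both on log scales, with peaks outside the clusters in grey, Hist1 peaks as red circles and Hist2 peaks as blue triangles. Of the 49 cluster peaks 45 are wider than 1 kb. The 4 narrow Hist1 peaks have scores of 132 to 227, above 77.2% to 92.0% of the JunD list.

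The edges of the intervals fell in stretches with few peaks. On chromosome 13 the first peak inside was a BACH2 peak 2.83 kb from the lower bound, with a fold enrichment of 3.68, and the nearest peak outside was a BACH2 peak 323 kb below that bound, with a fold of 3.73. At the upper end the last JunD peak inside had a score of 590 and ended 43.3 kb before the bound, while the next outside had a score of 50.8 and lay 607 kb beyond it. On chromosome 3 the first JunD peak inside, 3.12 kb from the bound, had a score of 558, and the nearest one outside on that side had a score of 81.3. A BACH2 peak of fold 5.15 lay 10.5 kb beyond the upper bound.

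Peaks of both lists joined when at most 100 kb apart formed 3 sub-blocks in the Hist1 region. The first ran from 21802829 to 21926359 (124 kb), the second from 22077413 to 22136318 (58.9 kb) and the third from 23490492 to 23856747 (366 kb). The gap between the first and second was 151 kb. The gap between the second and the third was 1354 kb, from 22136319 to 23490491, and held no peak of either factor. The median length of the peak-free stretches between peaks on chromosome 13 was 29.2 kb, with neighbours that overlap or touch not counted. Of those stretches, 19 were longer than this gap, which ranked 20 of 567 there and 416 of 11673 genome-wide. For JunD alone the gap was 1486 kb.

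With joining at up to 50 kb there were 6 sub-blocks, and at up to 200 kb there were 2. The gene table also lists the Hist1 genes in separate groups, 4 in number. Split where at least 5 other genes intervene, it has 19 Hist1 genes from H2bc13 to H4bc24, then 5 from H2ac12 to H2bc11, then 30 from H4c8 to H1f1, and then the pair H2bc1 and H2ac1, which code for testis variants of H2B and H2A. The 3 peak sub-blocks held 13, 5 and 24 JunD peaks. Between the first and second gene groups lie 39 genes, of which 31 are tRNA genes and 3 code for proteins other than histones, Zfp184, Pom121l2 and Prss16, the last a serine protease of the thymus. Between the second and the third lie 147, of which 75 are Vmn1r vomeronasal receptor genes or pseudogenes, expressed in sensory neurons of the nose, and 46 are tRNA genes. Its other coding genes are Gm11295, Zfp322a, Abt1, Btn1a1 and Btn2a2. Because the builds differ, positions were not compared, and which gene group lies in which peak sub-block was not determined.

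**Figure D2:**
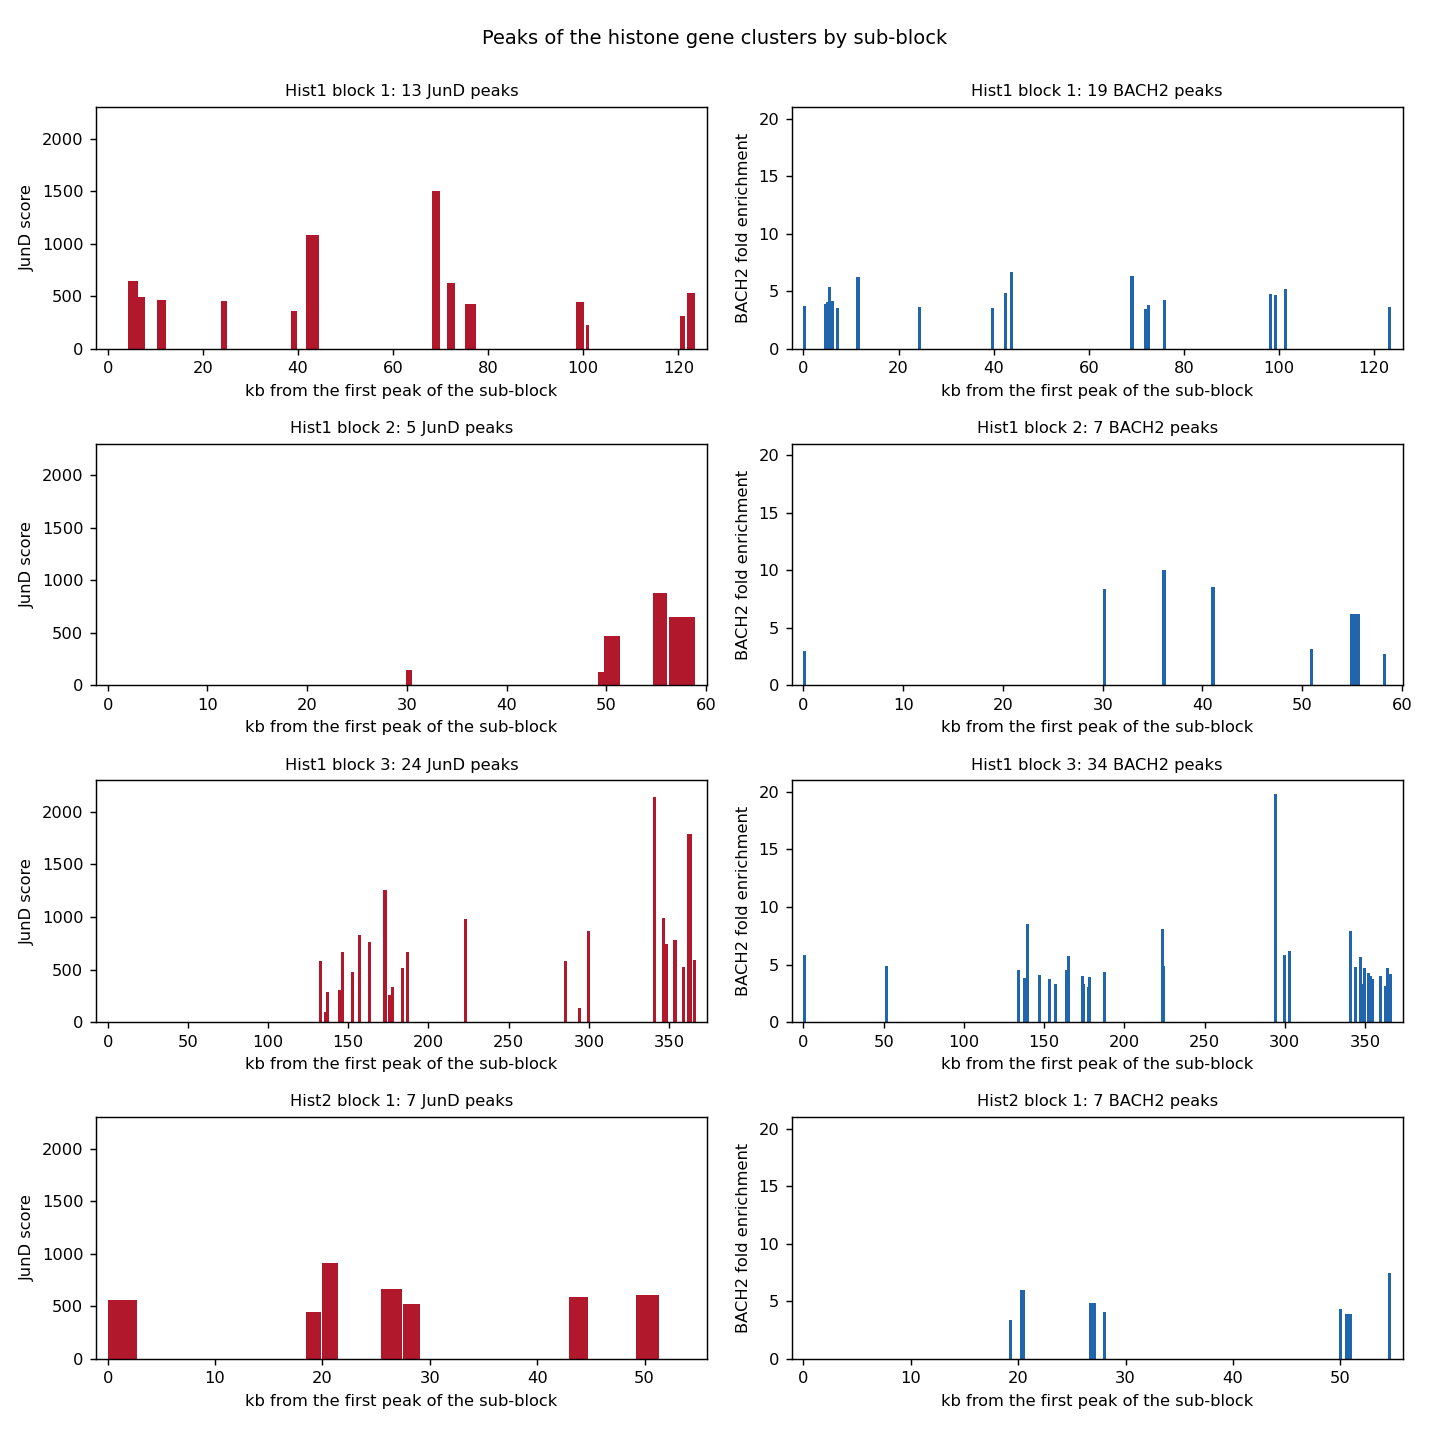
JunD score (left) and BACH2 fold enrichment (right) of each peak against its distance in kb from the first peak of its sub-block. Each bar is 1 peak, drawn at its width or at 0.5% of the block where narrower, and most BACH2 bars stay below 7 while the tallest, at 19.8 in block 3 of Hist1, stands where JunD is low (139).

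The first sub-block had 13 JunD peaks with scores from 227 to 1497 (median 466) and 19 BACH2 peaks with folds from 3.47 to 6.63 (median 4.11). Its strongest JunD peaks lay at 21871090 to 21872623 (score 1497, rank 6 of the list), 21844551 to 21847179 (score 1084, rank 10) and 21807110 to 21809192 (score 642, rank 36). The second of these was the widest of the sub-block, at 2629 bp. All 3 held BACH2 peaks, and the one at 21807110 held 4, with folds of 3.86, 4.04, 5.35 and 4.11. The strongest BACH2 peaks by fold were those at 21846335 to 21846648 (6.63-fold, −log10 q 13.5), 21871482 to 21872396 (6.34-fold, 16.2) and 21813864 to 21814753 (6.27-fold, 11.1). By −log10 q the peak at 21808003 to 21808267 (11.7) came after the first 2 of these. All of these BACH2 peaks lay inside JunD peaks, and none reached a fold in the strongest 20% of the BACH2 list. Only the JunD peak at 21923237 to 21924242 (score 310) held no BACH2 peak.

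The second sub-block was small and mixed. Its JunD peaks had scores of 145, 132, 470, 882 and 655 in order along the chromosome. The last 3, at 22127218 to 22128827, 22132048 to 22133537 and 22133714 to 22136318, were wide, with the last reaching 2605 bp, and the BACH2 peaks in them had folds of 3.14, 6.16 and 2.72. The first, at 22107307 to 22107950, was only 644 bp wide and coincided with a BACH2 peak of 8.40-fold and −log10 q 50.2. Next to it lay BACH2 peaks without JunD at 22113384 to 22113732 (10.03-fold, −log10 q 28.6) and 22118302 to 22118626 (8.52-fold, 32.5). These 3 BACH2 peaks above 8-fold ended 19.5, 13.5 and 8.59 kb before the nearest JunD peak over 1 kb wide. A weak BACH2 peak at 22077413 to 22077697 (3.01-fold) began the sub-block, and the JunD peak at 22126543 to 22127141 (599 bp) held no BACH2.

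The third sub-block was the largest, with 24 JunD peaks (scores 95.3 to 2141, median 630) and 34 BACH2 peaks (folds 3.005 to 19.8, median 4.30). JunD was strongest at 23830344 to 23832496 (score 2141, rank 2), 23851762 to 23854626 (score 1786, rank 4, at 2865 bp the widest of the clusters) and 23662050 to 23664390 (score 1255, rank 8). The BACH2 peak in the first of these, at 23830702 to 23832117, was itself 1416 bp wide, with a fold of 7.95 and a −log10 q of 30.7. The 3 BACH2 peaks in the second had folds of 3.15, 3.005 and 4.67. The pattern was opposite at 23783627 to 23784205, where a JunD peak of 579 bp and score 139 held the strongest BACH2 peak of the clusters (23783736 to 23784180, 19.8-fold, −log10 q 76.0, rank 214 of 9133 by fold). Other BACH2 peaks above 8-fold lay at 23629209 to 23629561 (8.53-fold, no JunD) and 23713249 to 23713945 (8.10-fold, −log10 q 25.03), the latter inside a JunD peak of score 977.

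The third sub-block had 4 JunD peaks that held no BACH2 peak, at 23625320 to 23626849 (score 95.3), 23634327 to 23635556 (304), 23673135 to 23674535 (515) and 23774897 to 23777084 (580). The first was the weakest JunD peak of the clusters although it was 1530 bp wide. The sub-block began with BACH2 peaks alone at 23490492 to 23490697 (5.82-fold) and 23541065 to 23541300 (4.85-fold), 132 kb and 81.0 kb before its first JunD peak. After the last peak, no peak of either list followed until 24507282.

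In the Hist2 region the 7 JunD peaks were all over 1 kb wide, and all 7 were among the 100 with the highest score. Their scores were 558, 445, 912, 662, 523, 592 and 608 along the chromosome, from 96023119 to 96074424. The strongest lay at 96043077 to 96044534 and ranked 13 of the list. BACH2 peaks with folds of 3.35, 5.94, 4.87 and 4.05 lay in the JunD peaks that begin at 96041581, 96043077, 96048557 and 96050613. The JunD peak at 96072350 to 96074424 held 2, of 4.31-fold and 3.88-fold. The JunD peaks at 96023119 to 96025872 and 96066128 to 96067870 held none. The strongest BACH2 peak of the region, at 96077570 to 96077836 (7.46-fold, −log10 q 26.2), lay outside all JunD peaks. The gene table has 10 histone genes there, from H2ac21 to H2bc18, of which 4 are H2A, 2 H2B, 3 H3 and 1 H4.

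JunD peaks of the clusters often lay side by side. In 8 pairs the neighbours were 33 to 176 bp apart, so that 16 of 49 JunD peaks (32.7%) had another within 200 bp, against 5.1% of the whole list. In the pair at 22132048 and 22133714 the scores were 882 and 655, and in the pair at 96041581 and 96043077 they were 445 and 912. Single JunD peaks also held several BACH2 peaks more often than in the list, at 10 of 49 against 2.1% of all JunD peaks. Among JunD peaks over 1 kb elsewhere it was 13.9%.

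BACH2 peaks of the clusters ranked low in their own list. Their fold enrichment ran from 2.72 to 19.8 with a median of 4.28 (interquartile range 3.69 to 5.67), against 5.77 for the 9066 BACH2 peaks elsewhere. The median was above only 22.7% of the BACH2 list. By fold, 51 of 67 lay below the list median, where 50% of all BACH2 peaks lie, 31 were in the weakest 20% of the list (19.9% of all), and 2 were in the strongest 20% (20% of all). The −log10 q had a median of 7.64 against 12.0 elsewhere, 51 of 67 below the list median (49.8% of all) and 4 in the strongest 20% (20% of all). BACH2 peak widths had a median of 303 bp, against 267 bp elsewhere.

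**Figure D3:**
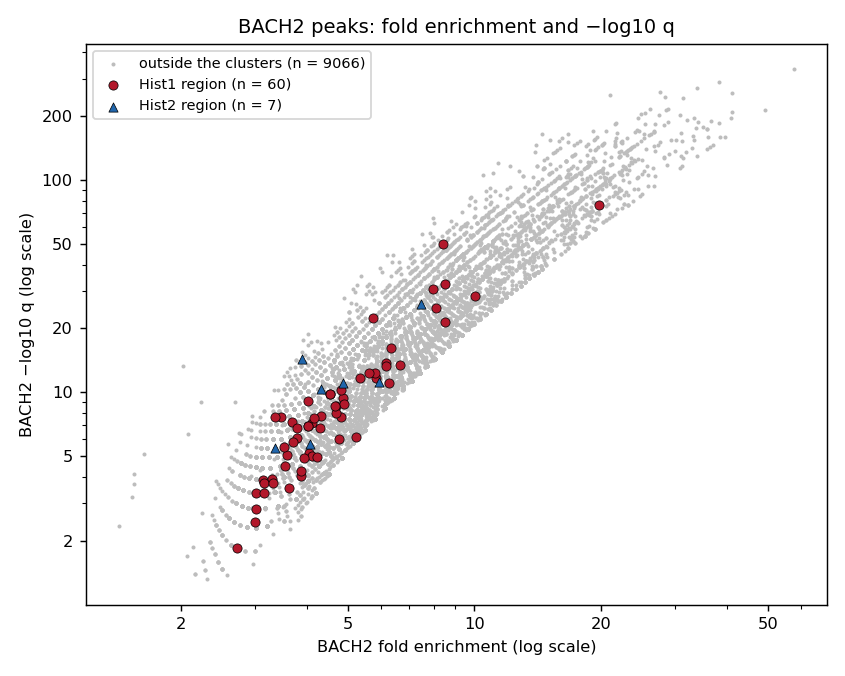
Fold enrichment (x axis) and −log10 q (y axis) of every BACH2 peak, both on log scales, with peaks outside the clusters in grey, Hist1 peaks as red circles and Hist2 peaks as blue triangles. Most cluster peaks sit at the low end, around their median fold of 4.28, and 1 Hist1 peak at 19.8-fold stands apart from the others.

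Within the clusters, BACH2 peaks inside JunD peaks had a lower median than those outside them. The 54 BACH2 peaks overlapped by JunD had a median fold of 4.08 and a median −log10 q of 7.39, while the 13 without JunD had 5.72 and 11.7, near the medians of the whole list (5.75 and 11.8). Low values occurred in both sets, since 44 of the 54 and 7 of the 13 lay below the list median of fold, the lowest of the 13 being the peak at 22077413 (3.01-fold). Elsewhere, over JunD peaks of all widths, the order was opposite, with a median fold of 5.99 in overlapped and 5.69 in other BACH2 peaks. The 51 cluster BACH2 peaks in JunD peaks over 1 kb had a median fold of 4.04, and the 3 in narrower JunD peaks had folds of 5.22, 8.40 and 19.8. BACH2 peaks in JunD peaks over 1 kb elsewhere had a median fold of 5.12 and a median −log10 q of 14.5. That fold was below the 5.69 of BACH2 peaks without JunD elsewhere, the same order as in the clusters. The −log10 q was above their median of 10.9, the opposite order. These differences were not tested.

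Most peaks of either factor in the clusters touched a peak of the other, but this depended on the overlap required. With at least 1 bp shared, BACH2 overlapped 41 of 49 JunD peaks (83.7%, Wilson 95% interval over peaks 71.0 to 91.5), where 48.8% of all JunD peaks are overlapped, and JunD overlapped 54 of 67 BACH2 peaks (80.6%, 69.6 to 88.3), where 29.3% of all are. With 50% of both peaks required, the share of cluster JunD peaks was 16.3%, below the 26.6% of the whole list. With every peak set to 200 bp it was 34.7% against 43.7%, and for BACH2 peaks 25.4% against 25.1%. Among JunD peaks over 1 kb, the share was 84.4% in the clusters and 59.1% elsewhere at 1 bp, 31.1% and 28.4% at 200 bp, 13.3% and 10% with 50% of both peaks required, and 17.8% and 40.6% in the stronger 50% of each list. Over all widths, that last setting gave 20.4% of cluster JunD peaks against 38.3% of that list, and 62.5% of cluster BACH2 peaks against 22.3%. The excess of the clusters over the list was thus not found under every setting. The stronger 50% kept all 49 cluster JunD peaks but only 16 of the 67 BACH2 peaks, which limits the JunD share that could be reached. Requiring 50% of both peaks limits it too, since the median widths in the clusters were 1575 bp for JunD and 303 bp for BACH2.

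BACH2 summits lay off the middle of the wide JunD peaks. The median distance from summit to JunD centre over the 54 overlapping pairs of the clusters was 293.5 bp, with quartiles at 167.5 and 457 bp, against 54 bp over the 2623 pairs elsewhere. In pairs elsewhere with a JunD peak over 1 kb it was 257.5 bp. As a share of the way from centre to edge it was 0.38 in the clusters, 0.39 in those wide peaks and 0.18 in all pairs elsewhere. The cluster values were nearer to those of other wide JunD peaks than to those of the list.

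Among the wide cluster peaks a higher JunD score tended to go with a stronger BACH2 peak. For the 41 overlapped JunD peaks, taking the highest BACH2 value in each, the rank correlation (Spearman's rho) of the score was 0.33 with fold and 0.48 with −log10 q. Without the 3 overlapped JunD peaks up to 1 kb wide, over the other 38, it was 0.61 for fold and 0.72 for −log10 q. Among the 260 overlapped JunD peaks over 1 kb elsewhere it was 0.11 and 0.070. Between JunD width and BACH2 fold in the clusters, rho was 0.033 over the 41 peaks and 0.25 over the 38 wide ones. All points come from the same 2 libraries and many are neighbours, so these are descriptions. Because the read depth behind each peak is unknown, the part that shared local read density has in them was not tested.

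**Figure D4:**
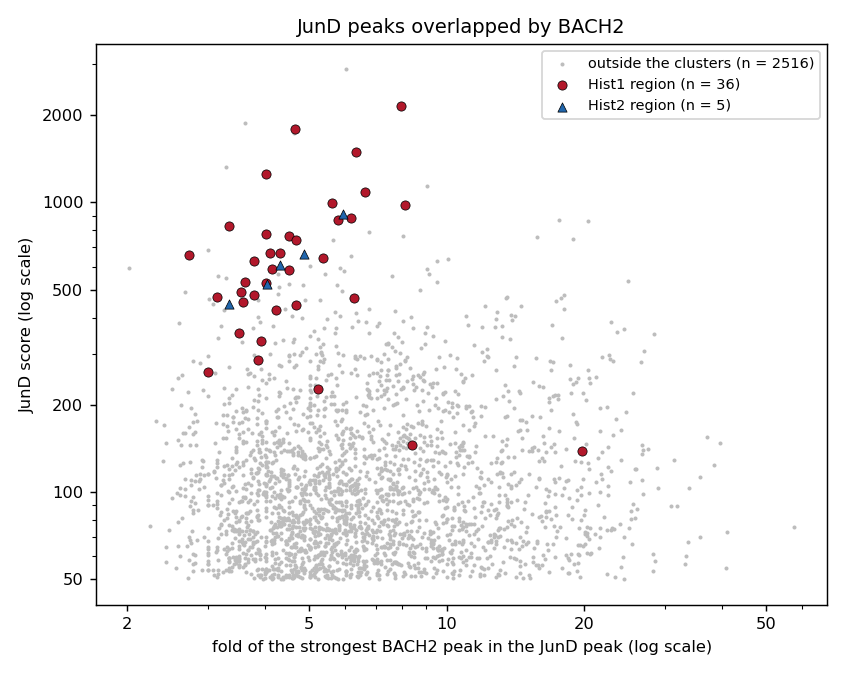
JunD score (y axis) against the fold of the strongest BACH2 peak inside the JunD peak (x axis), both on log scales, for all overlapped JunD peaks, with peaks outside the clusters in grey, Hist1 as red circles and Hist2 as blue triangles. Most cluster peaks form a rising band at high JunD score and low BACH2 fold, and the Hist1 peaks at 8.40-fold and 19.8-fold lie below that band with scores of 145 and 139.

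Score, fold and q were assigned to peaks by the authors' caller, and the lists carry different scores, so a JunD score and a BACH2 fold cannot be compared in size. Histone genes exist in near-identical copies, and how reads matching several copies were placed is not given in the sources used here.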

How the data were processed

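Peak lists of the BACH2 and JunD ChIP-seq libraries were used, 1 library per factor. The submitters' processing notes name Bowtie 0.12.9 and mm9 (NCBIM37). Which caller version and control were used, and whether reads were pooled, no source used here gives. The deposited BACH2 list carries per peak a fold enrichment (a ratio), −log10 values of p and q, and a summit, taken from the columns of the narrowPeak layout. The deposited JunD list carries a score, of unstated scale and at least 50. The JunD antibody is given with 2 catalogue numbers in the labels. The files hold no read counts, so depth is unknown.

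Positions are mm9, counted from 1. Members were peaks lying wholly inside the intervals, and an overlap needed at least 1 bp. Intervals on shares are Wilson 95% intervals and cover the counting of peaks only. No test was run. Members, gene families and motifs were chosen with earlier results of these data known. Named peaks were, per sub-block, the 3 strongest JunD peaks, the 3 BACH2 peaks highest by fold and by −log10 q, the widest JunD peak, all JunD peaks without BACH2 and all Hist2 peaks. The 1 kb split by width was chosen after values were seen, as were other peaks named. H4bc24 was counted as an H2B gene, from its older symbol Hist1h2br. No promoter window was matched for H2ac14, H2ac5-ps, H2bc21, H2bc4, H3c1, H3c7 and H4c14. The overlap count was tested on simulated data. Python 3.11.15, numpy 2.4.6, pandas 2.3.3, scipy 1.17.1 and matplotlib 3.10.9 were used.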

Additional observations from a re-analysis of the deposited data

How the results depend on the processing

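Of 34 alternatives, 21 left a value within the 95% interval of its main value (medians and shares), within 1.5 times (counts of sub-blocks) or within 0.1 (rho), and 13 moved it further. Some of the 21 had little or no room to move. All 49 cluster JunD peaks are in the stronger 50% of their list, so that setting left their median score and width unchanged. The Hist1 region alone keeps 42 of the 49 JunD and 60 of the 67 BACH2 peaks. The share of JunD peaks overlapped was 16.3% with 50% of both peaks required, 34.7% at 200 bp and 20.4% in the stronger 50% of each list, where it is 38.3% of that JunD list. The share of BACH2 peaks overlapped was 11.9%, 25.4% and 62.5% under the same settings, the last over 16 peaks. Over the BACH2 list as a whole it was 15.3% and 25.1% under the first settings, and 22.3% in its stronger 50%. Keeping the stronger 50% of BACH2 peaks gave a median fold of 7.04 and a median −log10 q of 21.9, by construction higher. Joining JunD peaks at most 1 kb apart gave a median width of 2153 bp. Peaks joined at up to 50 kb formed 6 sub-blocks and at up to 200 kb 2, against 3. The rho of 0.33 was 0.48 with −log10 q, 0.033 with JunD width and, in an alternative added after the data were seen, 0.61 without JunD peaks up to 1 kb wide. No paired analysis was possible because BACH2 and JunD had a single library each. Weak binding that was not called as a peak could not be counted, and since read depth is not known, its extent cannot be judged.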

Other observations

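At a given fold, a BACH2 peak with more reads has a larger −log10 q. The −log10 q per unit of fold had a median of 1.73 for the 51 BACH2 peaks inside wide JunD peaks of the clusters, 2.88 for the 328 inside JunD peaks over 1 kb elsewhere and 2.09 for the whole BACH2 list. At the 3 BACH2 peaks in JunD peaks up to 1 kb wide, of 5.22-fold, 8.40-fold and 19.8-fold, it was 1.19, 5.98 and 3.84, so the first lay below the median of the wide peaks and the others above it. These are values of peaks in 1 library and were not tested. The wide-peak sets of the clusters and elsewhere and the whole list had median folds of 4.04, 5.12 and 5.75. Their ratios were thus not compared at a given fold.

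Neighbouring histone genes on opposite strands with overlapping promoter windows were counted where the minus-strand window began first. This gave 5 pairs in the RefSeq table, and each of the 5 joined an H2A and an H2B gene (H2bc13 and H2ac13, H2ac22 and H2bc22, H2ac24 and H4bc24, H2ac11 and H2bc11, and H2bc1 and H2ac1). Pairs whose starts lie so close that the plus-strand window begins first were not counted, so 5 is a lower bound. The 8 pairs of JunD peaks at most 200 bp apart could not be set against them, since positions in the table and in the lists are of different builds.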
